A study of Mus musculus with 17 samples.

Results

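The histone genes were taken as all rows of the deposited table whose older mouse symbol begins with Hist1h, Hist2h, Hist3h or Hist4h, with H2af or with H3f3, leaving out 4 symbols that end in -ps. The rule found 81 of 48440 genes. Of these, 67 belong to the Hist clusters (54 Hist1 genes on chromosome 13, 10 Hist2 genes on chromosome 3, 2 Hist3 genes on chromosome 11 and 1 Hist4 gene on chromosome 6), 13 are variant genes named H2af or H3f3, and 1 is the antisense RNA H3f3aos. The rule reads symbols alone, but the family was picked with the comparison between the groups already known, in which Hist1h2bc stood among the leading genes by p, so the members count as chosen by the differences between the groups too, and those differences are given as a description. Genes of the GENCODE M21 annotation named Hist1h2bh and Hist1h2bm were not analysed here.

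Adult frontal cortex of 17 C57BL/6J mice, all male and aged 189 days, was sequenced. The Poly(I:C) group held 9 offspring of dams that received Poly(I:C), a synthetic double-stranded RNA used to mimic viral infection, by intraperitoneal injection of 20 mg/kg at G12.5 (gestational day). The saline group held 8 offspring of dams injected with saline. A value given after Poly(I:C) or after saline is one of the adult offspring of that group. The labels name 11 dams in all without tying an offspring to a litter, so littermates may stand among the libraries of a group, and p-values measure only the spread between these libraries. The groups share strain, sex and age.

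Histones package DNA into nucleosomes, each built on a core of H2A, H2B, H3 and H4 and sealed by a linker histone, H1. The genes of the Hist clusters are known mainly as replication-dependent genes: their short mRNAs are made in S phase and end in a conserved stem-loop, bound by the stem-loop binding protein, instead of a poly(A) tail. The variant genes, which encode H3.3, H2A.Z, macroH2A, H2AX and H2A.J, are expressed outside S phase, and most give ordinary polyadenylated mRNAs. Neurons of the adult cortex do not divide and replace their nucleosomal H3 largely with H3.3. Some Hist genes are also known to give polyadenylated mRNAs in cells that have left the cell cycle. The libraries were made from poly(A)-selected RNA, which does not target mRNAs that end at the stem-loop, so a low value does not measure them. How much of such mRNA was carried over was not measured.

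The transcript ends bear on which histone mRNAs a poly(A) selection can hold, so the stem-loop is shown first for the genes of the Hist clusters with an appreciable level, for the variant gene H2afx and for Hist1h4h, which stayed just below the level needed for testing. The motif searched was an upstream arm GGNNCT, a loop TTTN and a downstream arm AGNNCC, read without a break on the transcript strand, with the sequences read from the M21 transcripts (GRCm38). Capitals mark the 16 bases of the motif, and 5 bases are printed on each side.
Hist1h1c, chr13:23739507-23739532, plus strand: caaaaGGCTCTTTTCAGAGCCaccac
Hist1h2be, chr13:23585526-23585551, minus strand: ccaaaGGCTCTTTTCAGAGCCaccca
Hist2h2aa2, chr3:96239779-96239804, minus strand: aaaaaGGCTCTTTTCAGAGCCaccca
Hist2h4, chr3:96262934-96262959, minus strand: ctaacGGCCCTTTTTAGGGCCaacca
Hist3h2a, chr11:58955167-58955192, plus strand: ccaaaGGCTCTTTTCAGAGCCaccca
Hist3h2ba, chr11:58949344-58949369, plus strand: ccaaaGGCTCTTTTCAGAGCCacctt
H2afx, chr9:44335235-44335260, plus strand: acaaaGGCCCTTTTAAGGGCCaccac
Hist1h4h, chr13:23531453-23531478, plus strand: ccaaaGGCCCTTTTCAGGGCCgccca
The H1, H2A and H2B genes shown carry the same stem, with the upstream arm GGCTCT and the downstream arm AGAGCC. The H4 genes and H2afx carry GGCCCT and AGGGCC in those places.

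The polyadenylation signal AATAAA was searched in the last 50 bases of the same transcripts, on the transcript strand. It is shown in capitals with 12 bases on each side for the Hist genes above that hold it, for Hist2h2be, and for the genes of H3.3.
Hist1h1c, chr13:23740330-23740359, plus strand: gtgtatgcttctAATAAAaagcgtttagtt
Hist2h2be, chr3:96223705-96223734, plus strand: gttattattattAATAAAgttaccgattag
Hist2h4, chr3:96261697-96261726, minus strand: tcgtatacataaAATAAAatcttaaaaaca
Hist3h2a, chr11:58956785-58956814, plus strand: aggtatatgcccAATAAAataagagtacgt
Hist3h2ba, chr11:58949495-58949524, plus strand: cataatggtattAATAAAtttggttcaatt
H3f3a, chr1:180800836-180800865, minus strand: aatttgaaaaatAATAAAagtaccaataga
H3f3b, chr11:116021987-116022016, minus strand: ataggccttacaAATAAActagtaagtttg
Over all 21901 protein-coding genes of M21, the stem-loop motif was present in 0.329% (72 genes, of which 43 are members of the family) and the signal in 65.7%. The annotation behind the deposited table is not given in the sources used here, and 23 of the 81 members carry another version of their identifier than in M21, Hist1h2bc among them, so its transcript models may differ from those shown.

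Within the 81 members, the histone mRNA in the libraries came mostly from the variant genes. TPM (a level corrected for transcript length and scaled to the same total in each library) summed over all 81 members to between 613 and 716 per library. The 13 variant genes made up 83.0% of the summed mean and the 67 Hist genes 16.9%. H2B genes led among the Hist genes with 9.13%, followed by H2A genes with 6.25%, H4 genes with 0.753%, H1 genes with 0.676% and H3 genes with 0.117%. These shares leave out H1f0, H1fx and Cenpa, histone genes outside the naming rule, which together had a mean of 78.4 TPM.

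Only 17 of the 81 members reached at least 1 TPM in at least 8 libraries, which was the level needed for testing, and the same 17 had a mean of at least 1 TPM. These were 9 of 13 variant genes, 4 of 16 H2B genes, 2 of 20 H2A genes, 1 of 6 H1 genes, 1 of 13 H4 genes and 0 of 12 H3 genes. A further 42 members were above 0 in at least 1 library, and 22 were listed at 0 in all 17 libraries. Of the 81 members, 58 stayed below 1 TPM in every library. No depth can be read from TPM values, so a listing at 0 sets no upper limit.

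The threshold on low values fell within a run of Hist genes of similar level. Just inside it, the eighth highest value over the 17 libraries was 1.05 TPM for Hist1h2be and 1.66 TPM for Hist2h4. Just outside, it was 0.93 TPM for Hist1h4k and 0.82 TPM for Hist1h4h. Hist1h4h, an H4 gene, ran from 0 to 2.25 TPM after Poly(I:C) (median 0.55) and from 0.20 to 1.67 TPM after saline (median 0.835). Hist1h4k, another H4 gene, ran from 0 to 1.66 TPM (median 0.75) and from 0 to 1.70 TPM (median 0.835) in the same order. The groups overlapped throughout for both genes.

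The tested Hist genes had a longer median stretch of annotated transcript past the stem-loop than the rest, with overlap. Among the 65 protein-coding Hist genes, the stem-loop was present in 6 of the 8 tested genes and in 36 of the 57 others. The signal was present in 5 of the 8 tested and 9 of the 57 others, and both elements in 4 and 6. Where a stem-loop was present, the longest model went on for a median of 1048.5 bases after it in the tested genes, against 54 bases (3 to 4884) in the others. More than 100 bases followed it in 5 of 6 tested genes and in 16 of 36 others. The untested genes Hist1h1d, Hist4h4 and Hist1h2ac, with 4884, 2445 and 2010 bases, exceeded every tested gene, and Hist4h4 also holds the signal. The models ran on for 1861 bases in Hist1h2be, 1643 in Hist3h2a, 1257 in Hist2h4, 840 in Hist1h1c and 169 in Hist3h2ba. Hist2h2aa2 differed from these, with 35 bases after its stem-loop and no signal. These counts depend on what the annotation records, since 13 of the untested genes have models with no bases at all after the stop codon. No test was made of these counts, and TPM itself depends on the annotated length.

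**Figure D1:**
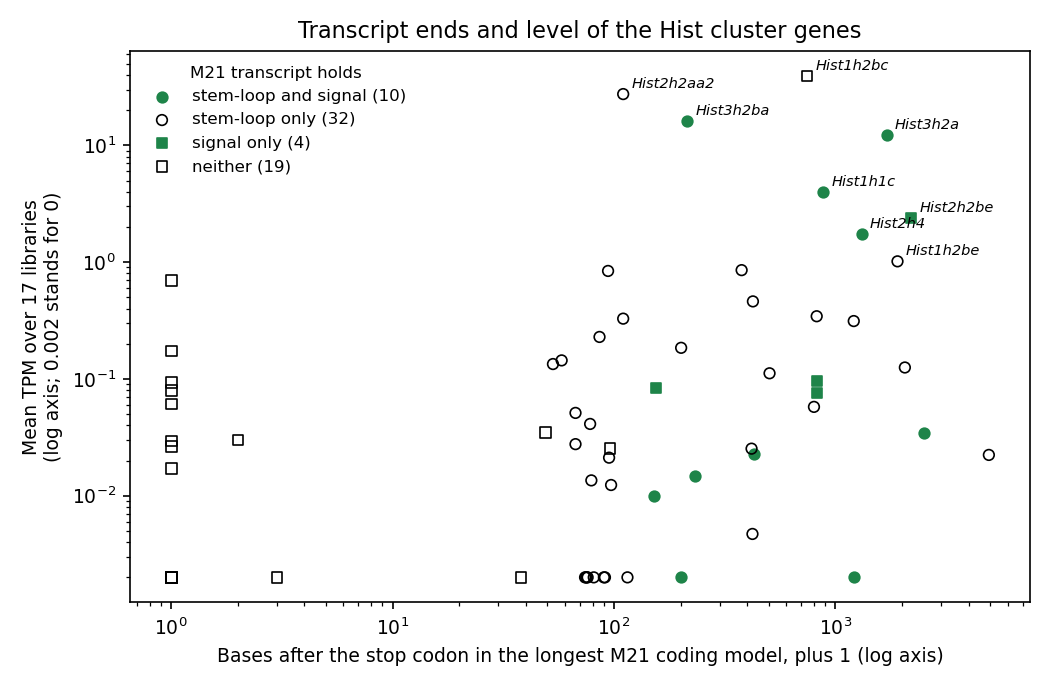
Mean TPM over 17 libraries (log axis) against the bases after the stop codon in the longest protein-coding M21 model, plus 1 (log axis), for 65 protein-coding Hist genes, marked by the stem-loop motif and the AATAAA signal. The 8 genes with a mean of at least 1 TPM are named, and all of them have more than 100 bases after the stop codon.

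The most abundant Hist1 gene and the most abundant Hist2 gene depart from this pattern. Hist1h2bc, an H2B gene at chr13:23684199-23692908, has a spliced M21 model with 742 bases after the stop codon and neither element where searched, yet was the most abundant Hist gene at a mean of 39.4 TPM. Hist2h2aa2, an H2A gene at chr3:96239749-96240276, has a short model that ends close to its stem-loop, and had a mean of 27.5 TPM. Every window of 100 bases (the read length) in Hist2h2aa2 also occurs in another gene, among them its near-identical partner Hist2h2aa1, so its reads were assigned by estimate. Hist2h2aa1 was listed at a mean of 0.33 TPM, with 0 in 12 of 17 libraries, and the sum of both was 27.5 ± 2.12 TPM after Poly(I:C) (SD, n = 9) and 28.2 ± 3.78 TPM after saline (SD, n = 8). That sum leaves out Gm20634, which overlaps Hist2h2aa1 on the same strand by 529 bases. Gm20634 shares windows with both genes and had a mean of 3.28 TPM.

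Reads shared between genes also limited the genes at low level. The median share of 100-base windows that also occur in another gene was 7.70% in the 8 tested Hist genes and 44.0% in the 57 others, of which 25 shared over 50% of their windows. A listing at 0 or near it in those genes can therefore reflect how shared reads were divided, which was not tested.

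Among the variants, the genes of H3.3 stood highest. H3f3a (chr1:180800832-180813943) and H3f3b (chr11:116021912-116027962) encode the same H3.3 protein, the H3 that is laid down outside replication. H3f3a ran from 154.13 to 182.02 TPM after Poly(I:C) (median 168.34) and from 156.44 to 185.73 TPM after saline (median 170.505). H3f3b ran from 125.61 to 155.46 TPM (median 145.05) and from 132.67 to 179.61 TPM (median 145.945) in the same order. The groups overlapped in both genes, and the highest H3f3b value belonged to saline replicate 7.

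H3f3a was above H3f3b in 16 of 17 libraries, all but saline replicate 5, where the levels were 159.46 and 159.98 TPM. The part of H3f3b in the summed level of both was 45.9 ± 2.72% after Poly(I:C) (SD, n = 9) and 46.8 ± 2.40% after saline (SD, n = 8). Both genes together made up between 46.0% and 51.0% of the histone TPM of a library. By contrast, the 12 H3 genes of the Hist clusters, which encode the replication-dependent H3 proteins, summed to between 0.12 and 1.21 TPM.

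H3f3c, annotated in M21 as a processed pseudogene of the H3.3 family, varied most among the tested members. It was listed at 0 in 3 Poly(I:C) libraries and 2 saline libraries, reached 8.15 TPM in Poly(I:C) replicate 9 and 2.54 TPM in saline replicate 3, and had medians of 1.74 and 1.485 TPM. In its model, 56.7% of 100-base windows occur in other genes, the most abundant of which is H3f3a. The sum of H3f3a and H3f3c was 171.7 ± 10.3 TPM after Poly(I:C) (SD, n = 9) and 171.5 ± 12.1 TPM after saline (SD, n = 8). The coefficient of variation over the 17 libraries was 111% for H3f3c, and 8 of the 17 tested members had one below 10%.

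The H2A.Z genes were next in summed level, while H2afv by itself stood below H2afy. H2A.Z is a variant of H2A found around promoters, encoded by H2afz (chr3:137864487-137866922) and H2afv (chr11:6427229-6444443). H2afz ran from 57.94 to 87.89 TPM after Poly(I:C) (median 65.84) and from 60.66 to 73.19 TPM after saline (median 65.42). H2afv ran from 34.04 to 41.16 TPM (median 36.64) and from 34.66 to 42.30 TPM (median 40.09) in the same order. Both overlapped between the groups, with the H2afz extreme in Poly(I:C) replicate 2, and H2afv made up 35.6 ± 3.47% of the pair after Poly(I:C) (SD, n = 9) and 37.2 ± 2.35% after saline (SD, n = 8).

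The library with the highest H2afz level was also at an end of the range for a copy of the gene. Gm8203, a processed pseudogene on chromosome 6 chosen here after its values were seen, shares windows of 100 bases with H2afz, up to 40.5% of those in a protein-coding H2afz model. Poly(I:C) replicate 2, which had the highest H2afz level, had the lowest Gm8203 level, 19.24 TPM against 28.65 to 44.43 TPM in the other 8 Poly(I:C) libraries. Summed, H2afz and Gm8203 stood at 107.13 TPM in that library and between 92.33 and 113.65 TPM over all 17. After Poly(I:C) the SD was 9.28 TPM for H2afz, 8.23 TPM for Gm8203 and 5.75 TPM for their sum (n = 9). After saline it was 4.65, 3.54 and 5.81 TPM (n = 8), so the sum there had the largest SD. As a percentage of the mean, the SD of H2afz, Gm8203 and their sum was 13.7, 22.8 and 5.54% after Poly(I:C). After saline these were 6.99, 10.2 and 5.73%, so the relative spread of the sum was smaller there by a narrow margin.

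The macroH2A genes encode H2A variants with a large extra domain, often linked to silent chromatin. H2afy (chr13:56073619-56136361) ran from 43.02 to 51.86 TPM after Poly(I:C) (median 48.48) and from 44.74 to 53.59 TPM after saline (median 50.165). H2afy2 (chr10:61738665-61784147) ran from 9.99 to 13.15 TPM (median 10.64) and from 11.20 to 12.85 TPM (median 11.635) in the same order. For H2afy2, 5 of 9 Poly(I:C) libraries lay below the lowest saline library, while Poly(I:C) replicate 9 lay above the highest. H2afy2 made up 18.6 ± 1.14% of the pair after Poly(I:C) (SD, n = 9) and 19.3 ± 0.927% after saline (SD, n = 8).

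H2afx and H2afj were close in level. H2afx (chr9:44334694-44336077) encodes H2AX, whose phosphorylated form marks DNA breaks, and its gene combines a stem-loop with a model that goes on for 822 bases after it. It ran from 26.19 to 30.18 TPM after Poly(I:C) (median 28.56) and from 26.40 to 32.44 TPM after saline (median 29.81), so the groups overlapped. H2afj, which encodes H2A.J, had means of 27.5 ± 2.29 TPM (SD, n = 9) and 28.5 ± 1.70 TPM (SD, n = 8) in the same order. H2afx was above H2afj in 12 of 17 libraries, and H2afj above Hist2h2aa2 in 10 of 17, so these 3 neighbours in the order of levels are not separated.

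**Figure D2:**
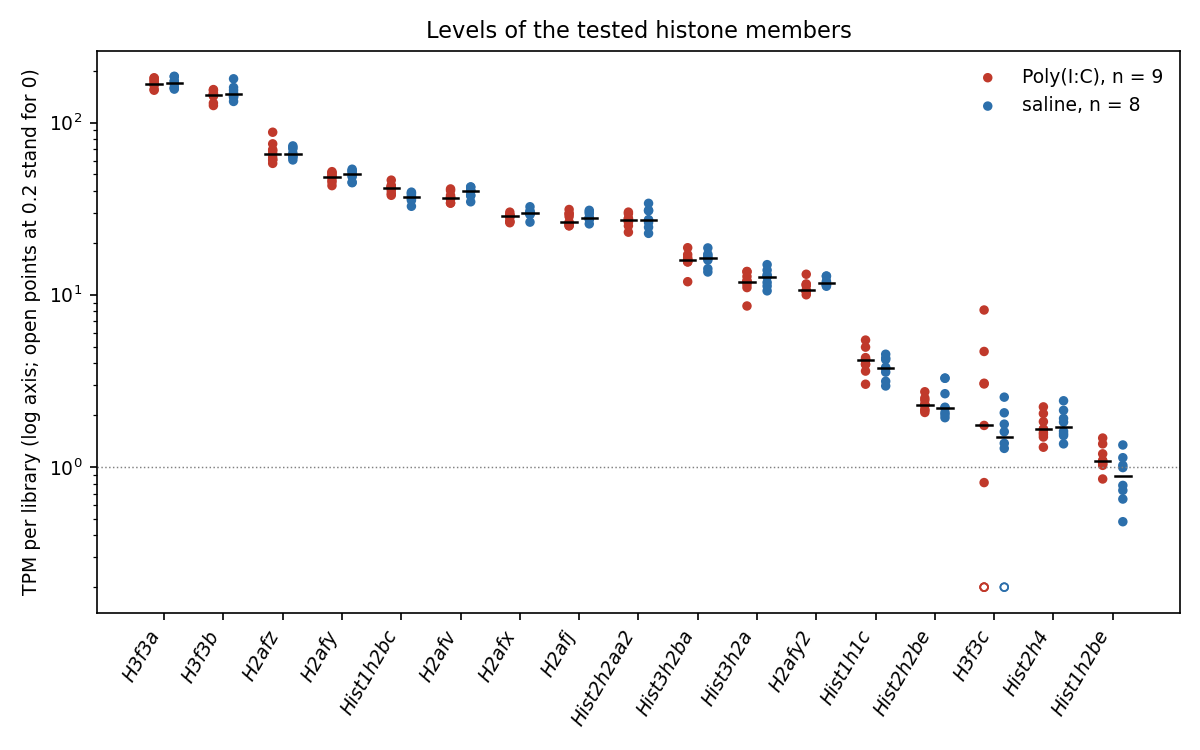
TPM of the 17 tested members in each library (log axis), ordered by mean, for 9 Poly(I:C) libraries (red) and 8 saline libraries (blue), with a bar at the median of each group and open points for values listed at 0. The levels span from about 1 TPM for Hist1h2be to 185.73 TPM for H3f3a. The groups overlap for all 17 members, but overlap was not counted over all tested genes, so it sets the members apart from no others.

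In the order of levels, H3f3b was above H2afz, H2afz above H2afy, H2afv above H2afx, Hist2h2aa2 above Hist3h2ba and H2afy2 above Hist1h1c in all 17 libraries with no overlap of ranges. Hist1h2bc and H2afv were not separated, with Hist1h2bc the higher in 9 of 17 libraries. H3f3c and Hist2h4 were likewise not separated, with H3f3c the higher in 7 of 17.

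Hist1h2bc was the member with the smallest p between the groups. It ran from 37.80 to 46.30 TPM after Poly(I:C) (median 41.89) and from 32.64 to 39.43 TPM after saline (median 36.975). Of the 9 Poly(I:C) libraries, 7 lay above every saline library, and the other 2, replicates 3 and 7 with 37.80 and 38.76 TPM, lay within the saline range. The means were 41.7 ± 2.504 TPM (SD, n = 9) and 36.8 ± 2.21 TPM (SD, n = 8), a difference of 0.17 ± 0.0427 (SE) on the log2(TPM + 1) scale with a 95% interval of 0.08 to 0.26. It ranked 20 of 14144 genes by p, with an unadjusted limma p of 0.00062, and did not pass the Benjamini-Hochberg adjustment over all genes (adjusted p = 0.417). The sign was the same in all 27 alternatives, with adjusted p between 0.111 and 0.767.

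Where they had values, the genes that share sequence with Hist1h2bc were low. In its M21 model, 25.4% of 100-base windows occur in other genes. These are 14 genes, of which 12 are in the table, and the rest have no value. The 12 together stood at 1.71 ± 0.430 TPM after Poly(I:C) (SD, n = 9) and 1.58 ± 0.658 TPM after saline (SD, n = 8). With Hist1h2bc the sum was 43.4 ± 2.57 TPM after Poly(I:C) (SD, n = 9) and 38.4 ± 2.49 TPM after saline (SD, n = 8), with 7 of 9 Poly(I:C) libraries again above the highest saline library.

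The other 15 H2B genes of the Hist clusters summed to 19.9 ± 1.69 TPM after Poly(I:C) (SD, n = 9) and 20.2 ± 0.926 TPM after saline (SD, n = 8). Hist1h2bc made up 67.6 ± 2.37% of the H2B total of the Hist clusters after Poly(I:C) (SD, n = 9) and 64.6 ± 2.01% after saline (SD, n = 8), a ratio that a single factor per library does not change. The 20 H2A genes summed to 40.2 ± 3.49 TPM (SD, n = 9) and 41.2 ± 5.00 TPM (SD, n = 8) in the same order. Without Hist1h2bc, the Hist genes summed to 70.5 ± 4.26 TPM (SD, n = 9) and 71.1 ± 5.66 TPM (SD, n = 8).

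**Figure D3:**
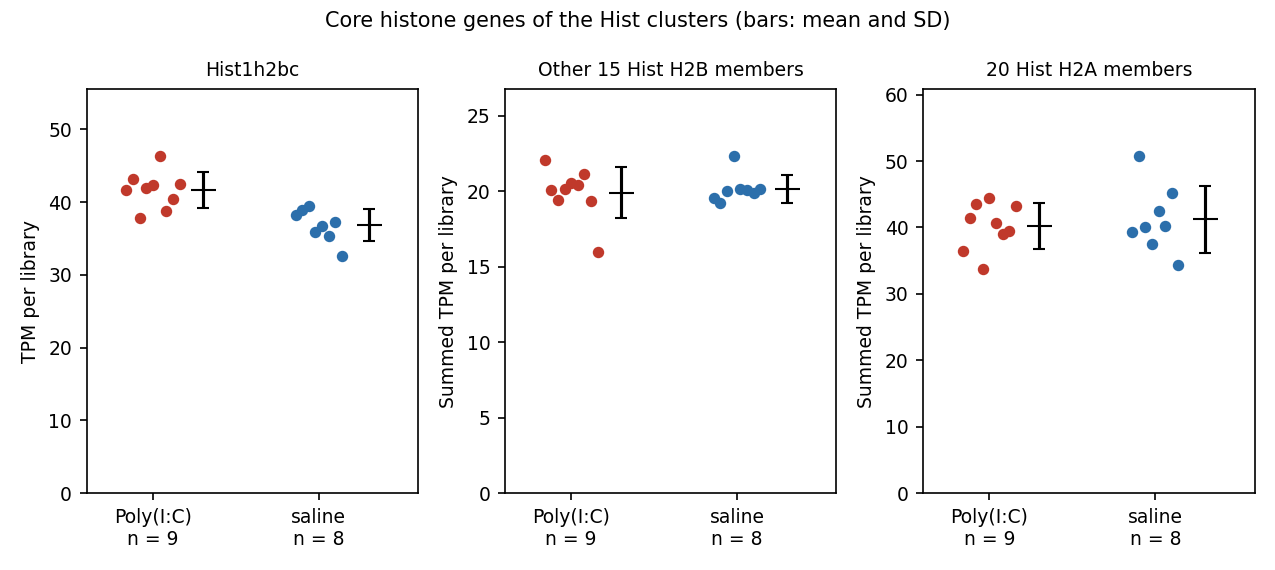
TPM per library of Hist1h2bc (left), summed TPM of the other 15 Hist H2B members (middle) and of the 20 Hist H2A members (right), for 9 Poly(I:C) and 8 saline libraries, with mean and SD as black bars. Hist1h2bc lies above the highest saline library in 7 of 9 Poly(I:C) libraries, while the sums of the other genes overlap.

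Hist1h2be, an H2B gene at chr13:23583670-23621124, had the second smallest p and lies near the threshold on low values. It ran from 0.85 to 1.47 TPM after Poly(I:C) (median 1.08) and from 0.48 to 1.34 TPM after saline (median 0.885), and the groups overlapped. The difference was 0.18 ± 0.0879 (SE) on the log2(TPM + 1) scale (adjusted p = 0.573 by limma). Its annotated span overlaps Hist1h1e, an H1 gene on the same strand, by 496 bases, and reads there cannot be told apart by strand.

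Hist1h1c, which encodes the linker histone H1.2, was the single H1 gene of the clusters above the threshold, at chr13:23738808-23740367. It ran from 3.02 to 5.45 TPM after Poly(I:C) (median 4.18) and from 2.95 to 4.51 TPM after saline (median 3.755), with overlap. The difference was 0.12 ± 0.0867 (SE) on the log2(TPM + 1) scale (adjusted p = 0.696 by limma). Its highest value, 5.45 TPM, was in Poly(I:C) replicate 7, the library with the highest summed oligodendrocyte and striatal markers. The difference was 0.08 without that library, 0.09 without it and saline replicate 7, and 0.08 to 0.16 with any 1 library left out.

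The remaining Hist genes showed smaller differences. Hist3h2ba and Hist3h2a, an H2B and an H2A gene that neighbour each other on chromosome 11, had means of 15.9 and 11.9 TPM after Poly(I:C) and 16.1 and 12.6 TPM after saline. The part of Hist3h2ba in the pair was 57.2 ± 5.38% (SD, n = 9) and 56.1 ± 4.68% (SD, n = 8). Hist3h2a lies within the span of Trim17 on the same strand, and 29.8% of its windows are shared with that gene, which had a mean of 2.93 TPM. Hist2h2be, an H2B gene, had means of 2.32 and 2.46 TPM, with saline replicates 1 and 2 highest at 3.27 and 3.28 TPM. Hist2h4, the single H4 gene above the threshold, ran from 1.30 to 2.23 TPM after Poly(I:C) (median 1.65) and from 1.36 to 2.42 TPM after saline (median 1.715), and the groups overlapped.

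Over the family, the comparison of adult offspring by prenatal treatment gave no call. In the limma fit, 0 of the 17 tested members passed an adjusted p of 0.05, where the share called over all 14144 genes was 0%. At an unadjusted p under 0.05 there was 1 of 17 members, Hist1h2bc, higher after Poly(I:C), where the background over all genes was 8.75% (1237 genes). In its own direction the background was 0.898% (127 genes), and the lower direction held 7.85% (1110 genes), a split that became 548 higher and 490 lower with median-of-ratios scaling. Of the 17 members, 5 had higher and 12 lower means of log2(TPM + 1) after Poly(I:C), with a median difference of -0.04, beside a median of -0.03 and 29.0% higher over all 14144 genes. A rank test (Mann-Whitney, exact, with ties given their mean rank) also called 0 genes, with 1132 genes and 3 members, Hist1h2bc, Hist1h2be and H2afx, under an unadjusted p of 0.05.

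The variant genes nearest to a difference all had lower means after Poly(I:C), like most genes. On the log2(TPM + 1) scale, H2afy2 differed by -0.10 ± 0.0492 (SE; adjusted p = 0.579), H2afx by -0.08 ± 0.0396 (adjusted p = 0.587) and H2afv by -0.09 ± 0.0454 (adjusted p = 0.591). Their 95% intervals each reached just past 0, to 0.01. H3f3b differed by -0.06 ± 0.0538 (adjusted p = 0.738) and H3f3a by -0.01 ± 0.0428 (adjusted p = 0.971), with intervals of -0.17 to 0.05 and -0.10 to 0.08. With median-of-ratios scaling, which brought the median over all genes from -0.03 to 0.00, H2afy2 stood at -0.06, H2afx at -0.04 and H2afv at -0.05, H3f3a turned to 0.03 and Hist1h2bc stood at 0.21 (adjusted p = 0.168).

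**Figure D4:**
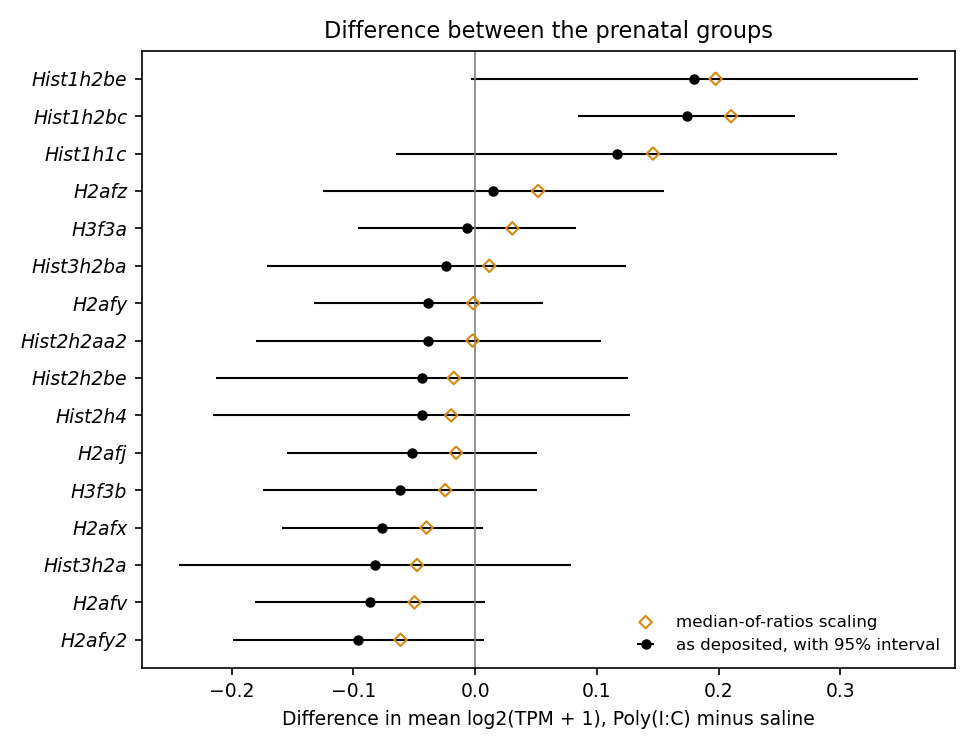
Difference in mean log2(TPM + 1), Poly(I:C) minus saline, for 16 tested members (H3f3c, with an interval of -0.64 to 1.13, is left out), as deposited with 95% intervals (black) and with median-of-ratios scaling (open diamonds). Hist1h2bc is the member whose interval lies wholly on one side of 0, and the diamonds lie to the right of the black points.

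The sums by class overlapped between the groups. Variant genes together stood at 534.8 ± 16.8 TPM after Poly(I:C) (SD, n = 9) and 547.2 ± 28.0 TPM after saline (SD, n = 8), a difference of -12.4 TPM that became 1.96 TPM with median-of-ratios scaling. The Hist genes together reached 112.1 ± 4.46 TPM after Poly(I:C) (SD, n = 9) and 108.0 ± 7.26 TPM after saline (SD, n = 8). The H2B genes were the class with the least overlap, with 61.6 ± 2.98 TPM after Poly(I:C) (SD, n = 9) and 57.0 ± 2.07 TPM after saline (SD, n = 8). This difference lay mostly in Hist1h2bc, with means of 41.7 and 36.8 TPM in the same order. The sum of the other 15 H2B genes was close in both groups, with means of 19.9 and 20.2 TPM and medians of 20.17 and 20.045 TPM. Its lowest value was 15.99 TPM in Poly(I:C) replicate 9, and single genes within it went either way. H1 genes stood at 4.72 ± 0.964 and 4.04 ± 0.613 TPM, and H4 genes at 4.81 ± 1.31 and 5.02 ± 0.787 TPM, with the same n and overlapping ranges. The Hist genes below the threshold summed to 6.31 ± 1.58 TPM (SD, n = 9) and 5.54 ± 1.10 TPM (SD, n = 8), with a mean of 13.8 and 13.5 of 59 such genes above 0.

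Genes that act on histones were counted from lists chosen for their function. Beside their counts of higher and lower means, 29.0% of all 14144 genes were higher after Poly(I:C) as deposited. With median-of-ratios scaling that share was 49.1%. Among the factors of histone mRNA end formation, 15 of 17 listed genes were matched in the table and 14 tested, 0 passed the adjusted p, and 4 had higher and 10 lower means after Poly(I:C). Slbp, the stem-loop binding protein, stood at 17.1 ± 1.37 TPM after Poly(I:C) (SD, n = 9) and 16.4 ± 1.16 TPM after saline (SD, n = 8). The endonuclease of histone pre-mRNA and of polyadenylation, Cpsf3, had the smallest p of the list, with a log2 difference of -0.12 (adjusted p = 0.507). Zfp473, a cofactor of U7-dependent cleavage, stayed at or below 0.26 TPM.

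Of 28 histone chaperone and variant exchange genes, 26 were tested and 0 passed, with 5 higher and 21 lower, where 29.0% of all genes were higher. The 4 at an unadjusted p under 0.05 were lower, against 7.85% of all genes: Rbbp7, Nap1l1, Ssrp1 and Atrx, with log2 differences of -0.11, -0.12, -0.13 and -0.14 and adjusted p from 0.486 to 0.565. Hira, which deposits H3.3, had 51.3 ± 2.54 TPM after Poly(I:C) (SD, n = 9) and 50.8 ± 3.25 TPM after saline (SD, n = 8). Chaf1a and Chaf1b, subunits of the replication-coupled chaperone CAF-1, were low, with means after Poly(I:C) and after saline of 1.64 and 1.81 TPM for Chaf1a and of 0.35 and 0.30 TPM for Chaf1b. Rbbp4, a further CAF-1 subunit in the list, was not low, with means of 24.3 and 24.6 TPM.

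Of 22 S phase and proliferation genes, 12 were tested, 0 passed, and 4 were higher and 8 lower, where 29.0% of all genes were higher. Mki67, a marker of cycling cells, reached at most 0.53 TPM in any library and Top2a at most 0.55 TPM. Some other genes of the list were not low. Means after Poly(I:C) and after saline were 26.1 and 29.0 TPM for Pcna, 19.5 and 18.2 TPM for Ccne1, and 12.6 and 12.1 TPM for E2f1. Pcna had the smallest p of the list, with a log2 difference of -0.15. Of the histone genes outside the naming rule, H1f0, the linker histone of resting cells, had means of 47.6 and 46.5 TPM, H1fx 29.2 and 30.7 TPM, and Cenpa, the centromeric H3, 1.29 and 1.38 TPM. None of these 3 passed (smallest adjusted p = 0.690).

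Cell type markers were read in the same libraries, since in bulk tissue fewer cells of a type and less RNA per cell cannot be told apart. The 5 excitatory neuron markers of the cortex summed to between 2592 and 2907 TPM. The 10 striatal markers summed to 365 TPM in Poly(I:C) replicate 7 and between 206 and 289 TPM in the other 16 libraries, and 10 of 10 were higher in the Poly(I:C) mean. The 8 oligodendrocyte markers summed to 3170 TPM in that library and between 1529 and 2187 TPM in the others, with 8 of 8 higher. The 10 olfactory bulb and neuroblast markers summed to 328 TPM in saline replicate 7 and between 161 and 231 TPM in the others, with 8 of 8 tested lower in the Poly(I:C) mean. Blood genes summed to 413 ± 71.8 TPM after Poly(I:C) (SD, n = 9) and 368 ± 44.2 TPM after saline (SD, n = 8), with 4 of 4 tested higher. The sums of astrocyte, microglia and endothelium markers overlapped between the groups. None of the marker genes passed the adjusted p. Over all tested genes, 29.0% were higher in the Poly(I:C) mean.

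These libraries touch the histone results as follows. Saline replicate 7 had the highest sum of all members, 716.38 TPM, and the highest H3f3a and H3f3b. Without both replicate 7 libraries, the difference of H3f3b went from -0.06 to -0.03 and that of H2afv from -0.09 to -0.06, while that of Hist1h2bc was 0.19 (adjusted p = 0.767). Poly(I:C) replicate 7 was one of the 2 libraries of its group with Hist1h2bc in the saline range. The part of cell makeup in the other differences was not tested.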

How the data were processed

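Poly(A)-selected RNA of 17 libraries was sequenced as strand-specific single-end reads of 100 bases, per the labels' protocols. The authors deposited TPM values per gene. The submitters' processing notes name RSEM 1.2.31, STAR 2.5.1b, Trim Galore 0.4.0 and the build mm10. RSEM divides reads that match several genes by estimate. For annotation release and strand setting, nothing was given in the sources used here. TPM holds no depth, so no counting interval was computed. Groups came from the labels.

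The members and all lists were chosen with earlier results of these data known. Genes with at least 1 TPM in at least 8 libraries (14144) were compared on log2(TPM + 1) with limma 3.58.1 in R 4.3.3 (eBayes with a trend, two-sided, Benjamini-Hochberg over all genes). The procedure was tried on simulated data in which genes and libraries varied independently. Littermates and shifts shared by many genes were not simulated, so the trial does not cover them. The log2(TPM + 1) scale understates differences of low genes. Sums and shares got no test. Transcripts, coordinates and stretches of 100 bases shared between genes came from GENCODE M21 (Python 3.11.15, pandas 2.3.3). Named are all members with a mean of at least 1 TPM; the range per group is given for the 6 highest, the 4 smallest p in each direction, the variant pairs and 2 members on each side of the filter. Alternatives were other pseudocounts, filters, scalings, a rank test, a replicate block and leaving out libraries.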

Additional observations from a re-analysis of the deposited data

Results flagged for a closer look

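Over both prenatal groups, 82 sets of values (tested members, sums and shares, each within 1 group) were searched for a value standing apart from the rest of its group, and 6 such values were found, in 4 libraries. Chance gives about 1 in 20. Poly(I:C) replicate 9 was lowest for Hist3h2ba, at 11.9 TPM with the next library at 15.49 TPM, and so also for the H2B genes of the Hist clusters other than Hist1h2bc, at 15.99 TPM with the next at 19.39 TPM. The same library was highest for H2afy2, at 13.15 TPM with the next at 11.55 TPM. Poly(I:C) replicate 2 was highest for the summed variant genes, at 573.16 TPM with the next at 546.03 TPM, and it also had the highest H2afz. Saline replicate 7 was highest for the sum of H3f3a and H3f3b, at 365.34 TPM with the next at 328.12 TPM. Saline replicate 4 was highest for the H2B genes other than Hist1h2bc, at 22.32 TPM with the next at 20.16 TPM.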

How the results depend on the processing

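Of 454 alternative values of member differences, 435 kept the sign of the reported one, 12 of 17 members kept it in all of theirs, and none passed an adjusted p of 0.05. The 19 turned signs belonged to 5 members. H3f3a turned to 0.0305 with median-of-ratios, 0.0291 with upper-quartile and 0.0200 with quantile scaling, and to 0.0073, 0.0097, 0.0106 and 0.0116 without Poly(I:C) replicates 4 and 8 and saline replicates 2 and 7. Hist3h2ba turned to 0.0115, 0.0103 and 0.0199 with those scalings, to 0.0238 without Poly(I:C) replicate 9 or with the replicate block, and to 0.0057 without saline replicate 4. H2afz turned to -0.0331, -0.0054 and -0.0038 without Poly(I:C) replicates 2 and 6 and saline replicate 5. Hist2h2aa2 turned to 0.0019 without saline replicate 2, and Hist2h2be to 0.0020 and 0.0025 without saline replicates 1 and 2. With 1 library or both replicate 7 libraries left out, the values ran from -0.0236 to 0.0116 for H3f3a, from -0.0567 to 0.0238 for Hist3h2ba, from -0.0331 to 0.0486 for H2afz, from -0.0780 to 0.0019 for Hist2h2aa2 and from -0.0756 to 0.0025 for Hist2h2be. All 159 alternative values of 8 sums and shares moved by less than 1 SD, taken as the pooled spread between libraries within the groups. That limit is wide, since leaving out 1 library can shift a group mean by only a part of it. Even so, 3 sums turned sign. The difference in the sum of all members went from -8.19 TPM to 9.18 TPM with median-of-ratios scaling, 8.502 TPM with upper-quartile scaling and 6.30 TPM with quantile scaling, to 0.51 TPM without saline replicate 7 and to 0.89 TPM without both replicate 7 libraries. That of the variant genes went from -12.4 TPM to 1.96 and 1.38 TPM with the first 2 scalings, and that of the Hist H2A genes from -0.996 TPM to 0.13, 0.087 and 0.14 TPM with all 3 and to 0.36 TPM without saline replicate 2. Genes called went from 0 to 2 with median-of-ratios scaling and to 2 with the replicate block, and were 0 to 1 with 1 library left out (1 without saline replicate 4); no member was among them. Genes under an unadjusted p of 0.05 went from 1237 to 819 without both replicate 7 libraries and from 843 (without saline replicate 7) to 1710 (without saline replicate 6) with 1 left out. Median-of-ratios scaling turned the split of 127 higher and 1110 lower genes into 548 and 490. Members under that p went from 1 to 2 with no filter, with each of the 3 scalings and with the replicate block, to 3 with the exact Mann-Whitney test, and were 1 to 3 with 1 library left out, 3 without Poly(I:C) replicate 9 and without saline replicate 8; the causes were not tested. Replicate numbers did not pair the libraries: of 8 same-numbered pairs, 0 had deviations correlated over 0.1 (-0.221 to 0.0818), and 1 of 8 libraries correlated best with its own number. The block leaves Poly(I:C) replicate 9 without a partner. Depth is unknown, so what it limits cannot be given.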
